A study of Mus musculus with 18 samples.

Results

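The subject is the site dependence of the Foxp3+ difference: how far the RNA difference between Foxp3+ and CD4-only T cells of the small intestine depended on whether the cells lay in the epithelium or in the lamina propria below it. For each gene it was measured as (IEL TR − IEL SP) − (LP TR − LP SP) on log2(value + 1), called the interaction below. IEL stands for intraepithelial, LP for lamina propria, TR for sorted CD4+Foxp3+ cells and SP for sorted cells with CD4 but neither CD8α nor Foxp3. The comparison used 12 of the 18 libraries, 3 in each of these 4 groups, and the 10768 of 38392 listed genes with a value of at least 50 in at least 3 of the 12. Of these, 13 genes were called at an adjusted p under 0.05 with all 12 libraries, and the same 13 plus 11 others without IEL TR library 1, which stood apart from the rest.

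The donors were C57BL/6 mice carrying TNa, TNb and Foxp3GFP on a RAG1-/- background. The line, named pTregTN, was made by nuclear transfer from a regulatory T cell induced outside the thymus, so that all donor T cells shared 1 T-cell receptor and could not rearrange another. CD4+ donor cells sorted as negative for CD8α and for Foxp3-GFP were moved into C57BL/6 TCRa-/- TCRb-/- hosts, which make no αβ T cells of their own. After 6 weeks the 4 populations, and CD4+CD8α+ (DP) cells of both sites, were sorted from the small intestine. TR cells are thus those of the transferred cells that had come to express the reporter, and SP cells those in which neither marker was seen, all from 1 receptor.

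Regulatory T cells restrain immune responses and depend on the transcription factor Foxp3. Through the costimulatory receptors CD28, ICOS and the TNF-receptor family members OX40 and GITR, T cells receive signals beside that of the T-cell receptor, and regulatory T cells are known for high levels of several of them. Conventional CD4 T cells that enter the gut epithelium are known to lose features of helper cells and to take on features of cytotoxic cells, while regulatory T cells are more common in the lamina propria. The interaction asks whether the distance between Foxp3+ and CD4-only cells was the same in both places.

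A positive interaction means that TR exceeded SP by more in the epithelium than in the lamina propria. Arithmetically the same number is the site difference in TR cells minus the site difference in SP cells, and both readings are given. Values are the authors' normalised counts, log2 differences are followed by ± their standard error, and adjusted p-values are from limma with Benjamini-Hochberg adjustment over the 10768 genes. The 3 libraries of a group are called biological replicates in the labels, which do not name the animals, so the p-values measure only the spread between libraries.

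The libraries held 5093955 to 8851347 reads, with a median of 5696915.5. IEL TR was the most variable group: its libraries correlated with each other at 0.735 to 0.844 on log2 values of the tested genes, compared with 0.922 to 0.946 for LP TR, LP SP and IEL SP. The median SD of a gene reached 0.50 there, with 0.25 to 0.29 elsewhere, so IEL TR entered the fit of 12 libraries with a weight of 0.36 against 1.19 to 1.63. IEL TR library 1 correlated with the LP TR libraries at 0.740 to 0.753, against 0.842 to 0.856 for IEL TR libraries 2 and 3. In that library 6 predicted genes, picked after their values were seen, took 19.5% of the total, against 2.07% to 11.98% in the other 11. The interactions are therefore given with and without it. Differences within a site or a population are from the fit of 12 libraries unless stated, and for gene lists from the fit without it.

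In each site the Foxp3+ difference itself was broad. With 12 libraries, 493 genes (4.58% of those tested) were called between TR and SP in the epithelium and 1091 (10.1%) in the lamina propria. Without IEL TR library 1 these counts were 720 (6.69%) and 1047 (9.72%). Of the 493, 280 were higher in TR and 213 lower, a split that became 171 and 236 when the libraries were scaled to equal totals. With 12 libraries, 333 genes were called in the same direction in both sites and 3 in opposite directions (Tnfsf11, Klf3 and Exog, of which Tnfsf11 alone was also called for the interaction). Without IEL TR library 1 these were 404 and 7. Many more genes were called in 1 site than in both, but a gene called in 1 site and not in the other is not thereby site dependent, and the interaction tests that directly.

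**Figure D1:**
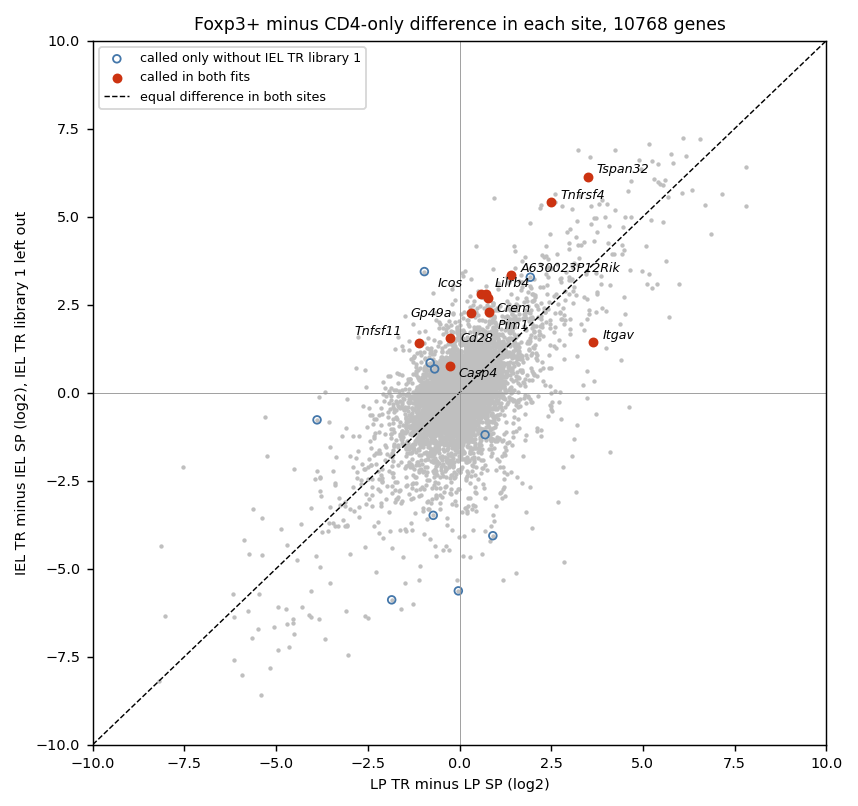
Foxp3+ minus CD4-only difference (log2) in the lamina propria on the x axis and in the epithelium on the y axis, IEL TR library 1 left out, 1 point per tested gene (10768). Red points are the 12 named genes called for the interaction with and without that library, blue rings the 10 named genes called only without it, and the dashed line marks equal differences. Most red points lie above the line with small lamina propria differences, and Itgav lies below it.

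The interaction was called for 13 genes with 12 libraries (0.121% of the 10768), 11 of them higher and 2 lower. Without IEL TR library 1 it was called for 24 (0.223%), 16 higher and 8 lower, and these included all 13, each with the same sign. Those 13 are again 0.121% of the genes tested. At an unadjusted p under 0.05 there were 896 and 979 genes. The 11 higher genes were Tnfrsf4, Tspan32, Tnfsf11, A630023P12Rik, Icos, Gp49a, Crem, Lilrb4, Cd28, Pim1 and Casp4, and Itgav was 1 of the 2 lower ones. The median standard error of the interaction was 0.49 with 12 libraries and 0.46 without IEL TR library 1, and the median 95% interval reached 1.07 and 1.01 to either side.

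The plot of every library for these 12 genes shows the form the interaction took. For all 11 higher genes IEL SP was the lowest of the 4 groups, and for Itgav the group apart was LP TR.

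**Figure D2:**
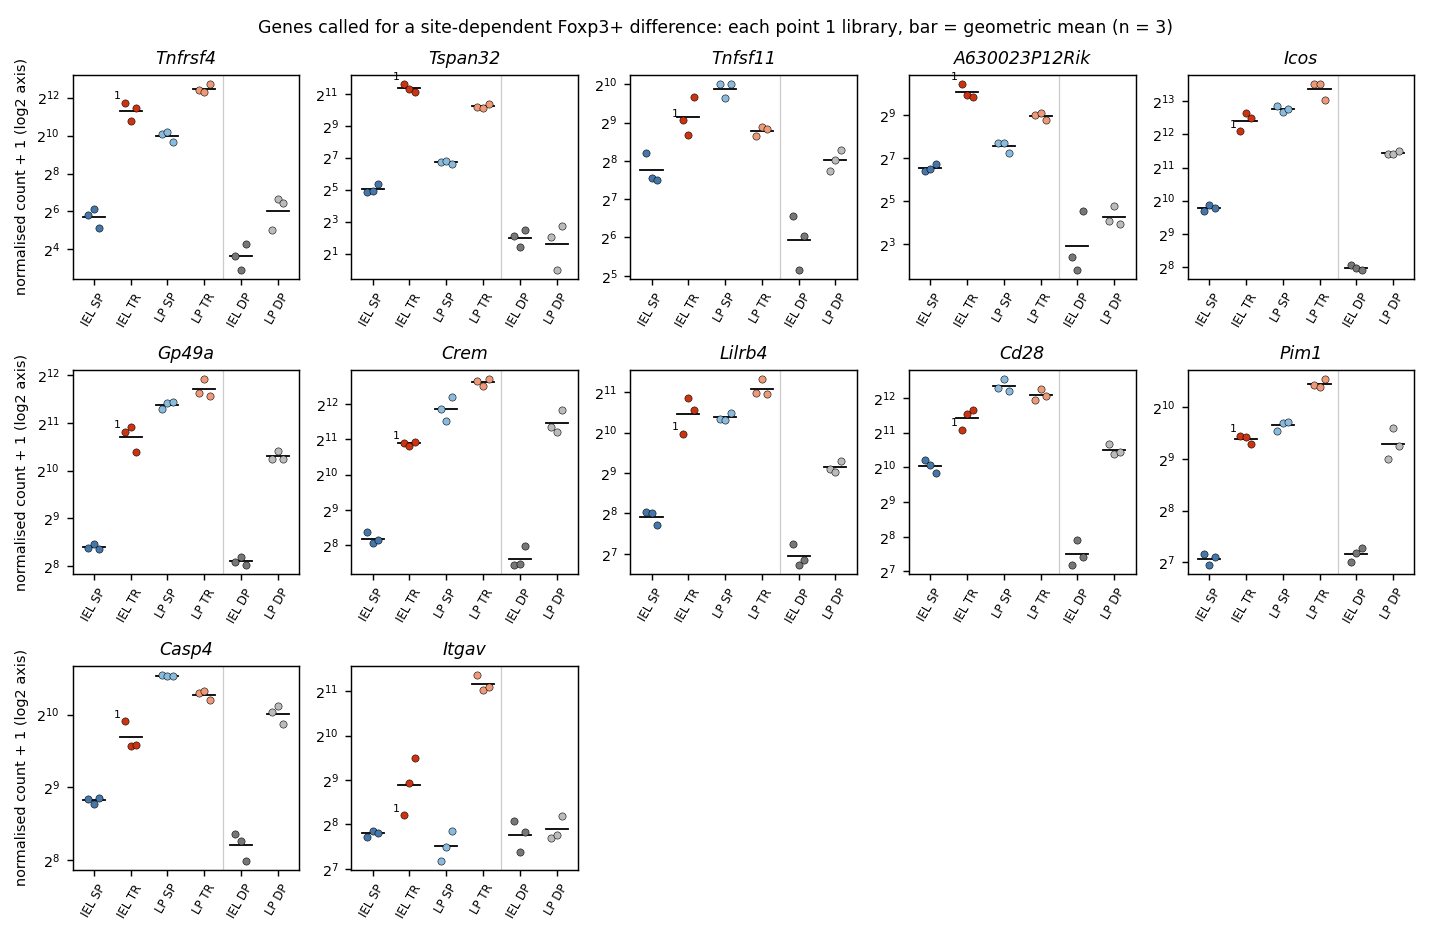
Normalised count + 1 on a log2 axis for the 12 named genes called with and without IEL TR library 1, 1 panel per gene with its own scale. Each point is 1 library (the digit marks IEL TR library 1), bars are geometric means of 3 libraries, and the DP libraries to the right of the grey line were not in the fit. In the 11 higher genes the IEL SP points lie below those of IEL TR, LP SP and LP TR, and in Itgav the LP TR points lie above all others.

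Icos encodes the inducible costimulator, a receptor that sustains activated and regulatory T cells (ENSMUSG00000026009, GRCm38 chromosome 1, 60977927 to 61000320). Its normalised counts were 4363, 6454 and 5777 in IEL TR, 824, 928 and 870 in IEL SP, 11661, 11754 and 8419 in LP TR, and 7426, 6576 and 6942 in LP SP. No groups overlapped, and IEL SP stood far below the rest. Icos was higher in TR by 2.64 ± 0.20 in the epithelium (adjusted p = 1.97e-05) and by 0.59 ± 0.13 in the lamina propria (adjusted p = 0.0154). The interaction was 2.05 ± 0.24 (adjusted p = 0.00765), and 2.22 ± 0.22 without IEL TR library 1 (adjusted p = 0.00733). Read by site, Icos was lower in the epithelium by 0.94 ± 0.20 in TR and by 3.00 ± 0.13 in SP, with means 7.98-fold higher in LP SP than in IEL SP and 1.92-fold higher in LP TR than in IEL TR.

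Cd28 lies beside Icos and encodes the main costimulatory receptor of T cells (chromosome 1, 60716800 to 60773359). It stood at 2179, 2958 and 3236 in IEL TR, 1192, 1080 and 915 in IEL SP, 3915, 4891 and 4266 in LP TR, and 5002, 5936 and 4750 in LP SP. In the lamina propria the TR and SP libraries overlapped, and the difference of −0.26 ± 0.14 was not called (adjusted p = 0.287). In the epithelium they did not, with TR 1.38 ± 0.20 above SP (adjusted p = 0.00246). The interaction of Cd28 was 1.64 ± 0.24 (adjusted p = 0.0277), or 1.81 ± 0.23 without IEL TR library 1 (adjusted p = 0.0109). Ctla4, the inhibitory receptor that lies between Cd28 and Icos and binds the same ligands as CD28, had an interaction of 1.09 ± 0.52 that was not called (adjusted p = 0.613). Its 95% interval, −0.05 to 2.24, includes the estimates of both neighbours. The interaction of Ctla4 without IEL TR library 1 was 1.06 ± 0.51 (adjusted p = 0.578), with an interval of −0.07 to 2.18.

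Tnfrsf4 encodes OX40, a TNF-receptor family member that regulatory T cells carry at rest (ENSMUSG00000029075, chromosome 4, 156013843 to 156016612). It had the largest interaction of the 11 higher genes, 3.12 ± 0.47 with 12 libraries (adjusted p = 0.0277) and 2.91 ± 0.45 without IEL TR library 1 (adjusted p = 0.0317). The counts were 3364, 1752 and 2784 in IEL TR, 56.1, 69.2 and 33.9 in IEL SP, 5350, 5133 and 6801 in LP TR, and 1081, 1183 and 809 in LP SP. TR was thus above SP in both sites, 49.6-fold by the means in the epithelium and 5.62-fold in the lamina propria, and LP SP was 19.3-fold above IEL SP. Tnfrsf18, which encodes the related receptor GITR and lies close to Tnfrsf4 (chromosome 4, 156026164 to 156028895), had counts of 2326, 3087 and 3911 in IEL TR, 344, 407 and 324 in IEL SP, 4740, 4117 and 4497 in LP TR, and 1209, 1135 and 1152 in LP SP. Its interaction was 1.16 ± 0.22 with 12 libraries (adjusted p = 0.101) and 1.35 ± 0.21 without IEL TR library 1 (adjusted p = 0.03), so its call needed that library left out.

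Tnfsf11 encodes RANKL, a TNF-family ligand of activated T cells, and was the gene of the 13 whose Foxp3+ difference was called in opposite directions (ENSMUSG00000022015, chromosome 14, 78277445 to 78308043). It stood at 532, 410 and 816 in IEL TR, 293, 188 and 179 in IEL SP, 399, 474 and 452 in LP TR, and 1032, 796 and 1022 in LP SP. In the epithelium TR was higher by 1.38 ± 0.32 (adjusted p = 0.0318), and in the lamina propria it was lower by 1.10 ± 0.22 (adjusted p = 0.00764). The interaction was 2.48 ± 0.39 (adjusted p = 0.0331), and 2.52 ± 0.41 without IEL TR library 1 (adjusted p = 0.0378). The TR libraries of the 2 sites overlapped and those of SP did not, with LP SP 4.31-fold above IEL SP.

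Gp49a and Lilrb4 are near-identical neighbouring genes of immunoglobulin-like receptors. The identifier listed as Lilrb4 (ENSMUSG00000062593) carries another name, Gm49339, in the GENCODE M21 annotation, and reads may have been split between the copies, so the pair is best read as 1 uncertain signal. Gp49a stood at 1806, 1936 and 1332 in IEL TR, 331, 351 and 327 in IEL SP, 3142, 3855 and 3046 in LP TR, and 2489, 2718 and 2788 in LP SP. Its interaction was 1.98 ± 0.21 (adjusted p = 0.00765) and 1.93 ± 0.22 without IEL TR library 1 (adjusted p = 0.00997). Lilrb4 had 1004, 1852 and 1516 in IEL TR, 260, 257 and 207 in IEL SP, 2003, 2553 and 2002 in LP TR, and 1303, 1261 and 1423 in LP SP, with an interaction of 1.84 ± 0.28 (adjusted p = 0.0277) and 2.09 ± 0.25 (adjusted p = 0.00997). In both, IEL SP lay lowest with no overlap, and the lamina propria difference was small, called for Lilrb4 (0.71 ± 0.16, adjusted p = 0.0133) and not for Gp49a (0.32 ± 0.12, adjusted p = 0.113).

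Crem encodes a cAMP-responsive transcriptional modulator whose short forms repress transcription in T cells. Its counts were 1922, 1785 and 1960 in IEL TR, 327, 263 and 282 in IEL SP, 6497, 5850 and 6679 in LP TR, and 3726, 2912 and 4761 in LP SP. No groups overlapped, and both populations were lower in the epithelium, SP by 3.68 ± 0.15 (adjusted p = 7.29e-08) and TR by 1.75 ± 0.23 (adjusted p = 0.0032). The interaction was 1.94 ± 0.27 (adjusted p = 0.0239) and 1.92 ± 0.27 without IEL TR library 1 (adjusted p = 0.0219).

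Pim1 encodes a serine/threonine kinase induced by cytokines (chromosome 17, 29490753 to 29496112). It showed the same order of groups at lower levels, with 694, 683 and 626 in IEL TR, 143, 122 and 136 in IEL SP, 1366, 1346 and 1482 in LP TR, and 742, 828 and 835 in LP SP. IEL TR lay below LP SP, without overlap, and IEL SP about 5-fold lower still (ratio of means 4.99). The interaction of Pim1 was 1.51 ± 0.21 (adjusted p = 0.0224), against 1.48 ± 0.21 without IEL TR library 1 (adjusted p = 0.0219). Casp4 encodes an inflammatory caspase that responds to bacterial lipopolysaccharide inside cells (chromosome 9, 5308828 to 5336783). It had 959, 759 and 768 in IEL TR, 457, 438 and 463 in IEL SP, 1252, 1278 and 1170 in LP TR, and 1493, 1475 and 1480 in LP SP. Its interaction, 1.13 ± 0.17 (adjusted p = 0.0277) and 1.02 ± 0.17 without IEL TR library 1 (adjusted p = 0.0442), was the smallest of the 13 and joined a called difference in the epithelium (0.86 ± 0.14, adjusted p = 0.00527) to one in the lamina propria of −0.27 ± 0.10 that was not called (adjusted p = 0.114).

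In Tspan32 and A630023P12Rik the TR libraries, too, differed by site, in the other direction. Tspan32 encodes a tetraspanin of blood cells (ENSMUSG00000000244, chromosome 7, 143005046 to 143019644) and stood at 3148, 2468 and 2218 in IEL TR, 28.0, 29.8 and 40.7 in IEL SP, 1153, 1084 and 1329 in LP TR, and 105, 112 and 95 in LP SP. TR exceeded SP 79.5-fold by the means in the epithelium and 11.4-fold in the lamina propria, and the interaction was 2.77 ± 0.32 (adjusted p = 0.00765) or 2.63 ± 0.32 without IEL TR library 1 (adjusted p = 0.00997). A630023P12Rik, annotated as a long intergenic noncoding RNA (chromosome 5, 110514923 to 110525980), had 1387, 972 and 904 in IEL TR, 83.1, 89.4 and 105 in IEL SP, 508, 538 and 430 in LP TR, and 204, 203 and 151 in LP SP. Its interaction was 2.11 ± 0.32 (adjusted p = 0.0277) and 1.92 ± 0.31 (adjusted p = 0.0373). In these genes IEL TR lay above LP TR in every library, by 1.12 ± 0.27 in each, but the TR site difference was not called (adjusted p = 0.0559 for Tspan32 and 0.0587 for A630023P12Rik).

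Itgav had another form. It encodes the αV integrin subunit, which with β8 releases active TGF-β (ENSMUSG00000027087, chromosome 2, 83724397 to 83806916). It stood at 293, 488 and 727 in IEL TR, 209, 231 and 223 in IEL SP, 2647, 2089 and 2182 in LP TR, and 144, 180 and 231 in LP SP. LP TR stood apart from every other group. The interaction was −2.57 ± 0.36 (adjusted p = 0.0239) and −2.23 ± 0.32 without IEL TR library 1 (adjusted p = 0.0219). TR exceeded SP 12.5-fold by the means in the lamina propria (3.65 ± 0.20, adjusted p = 1.16e-06) and 2.27-fold in the epithelium (1.09 ± 0.30, adjusted p = 0.0671, or 1.43 ± 0.26 and 0.0077 without IEL TR library 1).

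**Figure D3:**
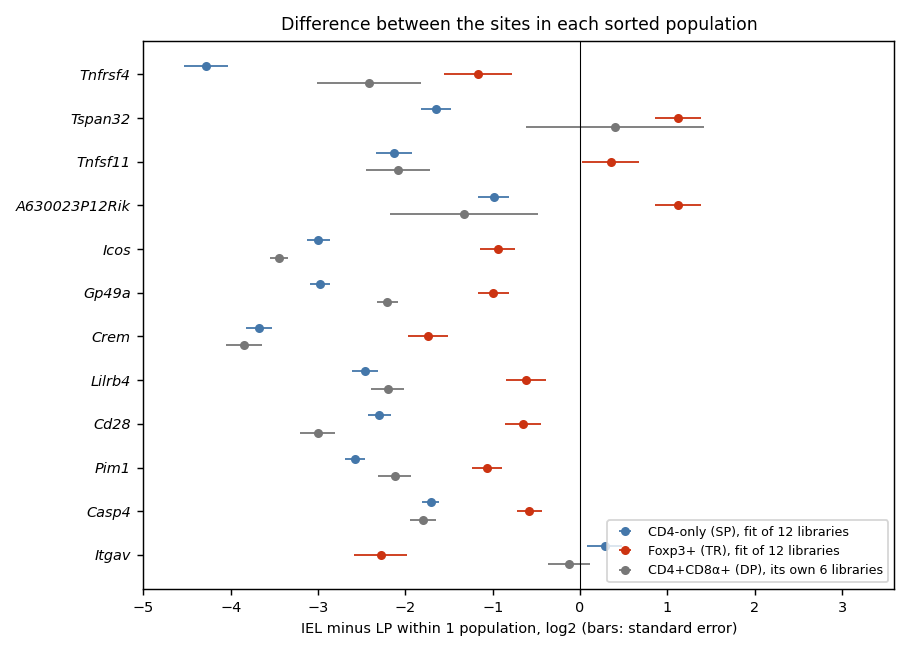
Site difference (IEL minus LP, log2, bars: standard error) in SP and TR cells from the fit of 12 libraries and in DP cells from a fit of their own 6 libraries, for the 12 named genes. In the 11 higher genes the SP points lie between −4.29 and −0.99 and both the SP and the DP points lie to the left of the TR points, while for Itgav only the TR point is far below 0.

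The 13 genes were chosen on the interaction, which is made of these same site differences, so the counts that follow for SP and TR cells describe them and support nothing. All 11 higher genes were lower in IEL SP than in LP SP without overlap between libraries, against 16.2% of all tested genes, and all 11 were called lower there, against 7.26% with 12 libraries and 7.24% without IEL TR library 1. The ratio of LP SP to IEL SP means ran from 2.01 for A630023P12Rik to 19.3 for Tnfrsf4. In TR cells 8 of the 11 were lower in the epithelium without overlap (11.5% of all genes), and Tspan32 and A630023P12Rik were higher without overlap (10.6%). Of the 8, 4 were called lower with 12 libraries (1.73% of all genes) and 5 without IEL TR library 1 (2.37%), and none of the 11 was called higher (0.344% of all genes). The median site difference of the 11 was −2.46 in SP and −0.66 in TR.

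Within the epithelium all 11 were higher in TR than in SP without overlap (15.3% of all genes) and all were called higher (2.6% of all genes, or 3.81% without IEL TR library 1). In the lamina propria 8 of the 11 were higher in TR without overlap (15.3%) and 2 were lower (13.2%). There 7 were called higher (5.79%) and Tnfsf11 was called lower (4.34%). The median TR − SP difference of the 11 was 2.55 in the epithelium and 0.71 in the lamina propria.

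The DP libraries took no part in the interaction and give the site difference in another sorted population. They have no Foxp3+ counterpart and so do not test the interaction. Whether they share animals with the TR and SP libraries is not stated in the labels. Of the 11 higher genes, 9 were lower in IEL DP than in LP DP without overlap, against 17.7% of all tested genes, and the same 9 were called lower, against 6.66%. Icos fell by 3.44 ± 0.10 on the log2 scale (adjusted p = 1.1e-05), from 2698, 2722 and 2861 in LP DP to 268, 248 and 242 in IEL DP. Crem fell by 3.85 ± 0.21 (adjusted p = 7.36e-05), from 2596, 2390 and 3639 to 171, 174 and 249. Cd28 fell by 3.00 ± 0.20 (adjusted p = 0.000176), from 1627, 1340 and 1400 to 144, 238 and 169. In these 3 genes every IEL DP library was below every IEL SP library as well. The exceptions were Tspan32, which was at or below 5.65 in all 6 DP libraries, and A630023P12Rik, at 22.3 and below in IEL DP and 14.1 to 26.3 in LP DP (−1.33 ± 0.85, adjusted p = 0.331). Itgav was not called between the DP groups (−0.13 ± 0.24, adjusted p = 0.755). In each of these bulk comparisons, fewer cells carrying a transcript and less of it per cell cannot be told apart.

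How many genes were called rested on single libraries. With 12 libraries, leaving out IEL TR library 2 left 0 of the 13 and leaving out IEL TR library 3 left 1, Gp49a. Without LP TR library 1 or 3 there were 3, namely Tspan32, Icos and Gp49a. Without LP TR library 2 there were 6, with those 3, Cd28 and Lilrb4 among them. Without LP SP library 1 there were 5, with the same 3 and Pim1 among them, and without LP SP library 2 they were the same 3 with Crem. Leaving out IEL SP library 2 gave 20 calls, without Tnfsf11. LP SP library 3 gave 11 when left out and cost Tnfsf11, Casp4 and Lilrb4, IEL SP library 1 gave 11 and cost Casp4 and A630023P12Rik, and IEL SP library 3 gave 13 and cost Tnfsf11. Over these refits the highest adjusted p of the 12 named genes ran from 0.0861 for Tspan32, Icos and Gp49a to 0.183 for Lilrb4. In the fit without IEL TR library 1, leaving out LP TR library 1 or 2 gave 6 or 9 calls in place of 24, LP SP library 1, 2 or 3 gave 15, 10 or 13, and IEL SP library 1 gave 15. Leaving out IEL TR library 2 or 3 there gave 203 or 161, with 1 IEL TR library remaining that was assumed to vary like the other groups. All 13 genes kept their sign under each of the 14 other settings tried on 12 libraries. When the 12 libraries were scaled to equal totals, which moved the median interaction of all genes from −0.02 to −0.12, 4 of the 13 were called, with Tspan32, Icos and Gp49a among them. When the DP groups shared the fit, 8 of the 13 were called with 12 libraries. The calls of Tspan32 (adjusted p = 0.444), A630023P12Rik (0.572), Tnfrsf4 (0.16), Tnfsf11 (0.105) and Cd28 (0.0598) were lost. That fit without IEL TR library 1 called 9 of the 13, and Tspan32 (adjusted p = 0.404), A630023P12Rik (0.558), Tnfrsf4 (0.148) and Tnfsf11 (0.0838) were lost. A block for replicate number, whose meaning the labels do not give, kept all 13 with 12 libraries and 7 without IEL TR library 1.

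**Figure D4:**
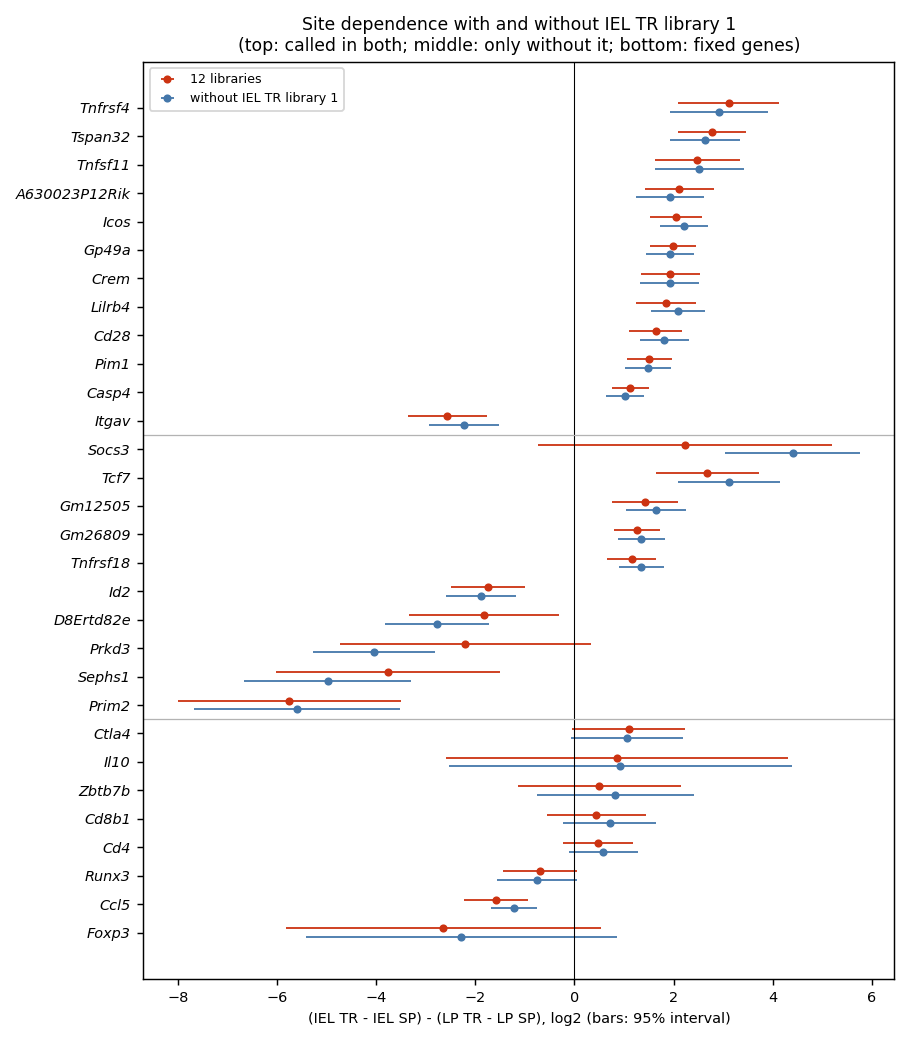
Interaction (log2) with its 95% interval with 12 libraries (red) and without IEL TR library 1 (blue), for the 12 named genes called in both (top), the 10 called only without that library (middle) and 8 genes always reported (bottom). The top estimates differ little between the colours, from Tnfrsf4 at 3.12 and 2.91 to Itgav at −2.57 and −2.23, while Socs3 and Prkd3 in the middle move by more than 1.

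Leaving out IEL TR library 1 added 11 calls, 5 higher and 6 lower, which the naming rule does not cover. The 10 named here were picked after their values were seen. Tcf7 encodes TCF-1, a transcription factor of naive and memory-like T cells. It stood at 143, 201 and 613 in IEL TR, 694, 511 and 612 in IEL SP, 64.9, 70.9 and 48.7 in LP TR, and 832, 999 and 911 in LP SP. TR cells were thus far below SP cells in the lamina propria (−3.89 ± 0.27, adjusted p = 5e-06), and in the epithelium IEL TR library 3 overlapped SP. The interaction was 2.68 ± 0.48 with 12 libraries (adjusted p = 0.0852) and 3.11 ± 0.47 without IEL TR library 1 (adjusted p = 0.03).

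Socs3 encodes a feedback inhibitor of cytokine signalling. It stood at 3.15, 565 and 256 in IEL TR, 28.0, 57.5 and 24.6 in IEL SP, 256, 434 and 308 in LP TR, and 627, 799 and 505 in LP SP. IEL TR library 1 alone lay at the bottom of its group, and the interaction moved from 2.22 ± 1.35 (adjusted p = 0.705) to 4.40 ± 0.62 (adjusted p = 0.0219) when it was left out. The other higher genes were Tnfrsf18 and the noncoding Gm12505 (1.65 ± 0.28, adjusted p = 0.0463) and Gm26809 (1.35 ± 0.21, adjusted p = 0.0319). All 5 were also called lower in IEL DP than in LP DP, as were 6.66% of all tested genes.

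Id2 encodes an inhibitor of E-protein transcription factors and was the most abundant of the 6 lower genes. It had 7024, 5086 and 5112 in IEL TR, 11177, 12522 and 11402 in IEL SP, 12665, 10748 and 17862 in LP TR, and 8647, 6424 and 10289 in LP SP. TR lay below SP in the epithelium and above it in the lamina propria, in both without overlap, and the interaction was −1.74 ± 0.34 with 12 libraries (adjusted p = 0.102) and −1.89 ± 0.32 without IEL TR library 1 (adjusted p = 0.048). Prkd3, Sephs1 and D8Ertd82e were low in IEL TR libraries 2 and 3 in particular. Prkd3, a protein kinase D, had 271, 3.44 and 6.97 in IEL TR and 300 to 463 in IEL SP. D8Ertd82e is named Prag1 in GENCODE M21. Prim2, a DNA primase subunit, was at 0, 0 and 0.87 in IEL TR, so the size of its interaction depends on the added 1. In Prkd3, Sephs1 and D8Ertd82e, IEL TR library 1 lay at least 5-fold above the other IEL TR libraries, and their interactions without it rest on 2 libraries.

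The sorted and lineage genes gave no called interaction. Foxp3 itself (chromosome X, 7573644 to 7595245) was at 66.2, 164 and 125 in IEL TR, 7.01, 18.1 and 39.9 in IEL SP, 112, 157 and 138 in LP TR, and 0, 2.99 and 10.4 in LP SP. TR lay above SP in both sites without overlap. This difference was called in the lamina propria (5.24 ± 0.81, adjusted p = 0.00174). In the epithelium it was not called (2.60 ± 1.21, adjusted p = 0.272, or 2.96 ± 1.15 and 0.164 without IEL TR library 1). The interaction was −2.65 ± 1.45 (adjusted p = 0.666) or −2.28 ± 1.43 (adjusted p = 0.689) without IEL TR library 1. The 95% interval of the Foxp3 interaction with 12 libraries was wide, −5.83 to 0.54. Cd4 (0.48 ± 0.32, adjusted p = 0.732) and Cd8b1 (0.44 ± 0.45, adjusted p = 0.848) were not called either, and stood at 0.58 ± 0.32 and 0.71 ± 0.43 without IEL TR library 1 (adjusted p = 0.636 and 0.682). Cd8a fell below the floor for testing, with 1 of the 12 libraries above 50, IEL SP library 1 at 113.

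Zbtb7b, which encodes the helper lineage factor ThPOK, and Runx3, which opposes it and promotes CD8 lineage genes, had interactions of 0.50 ± 0.75 (adjusted p = 0.896) and −0.69 ± 0.34 (adjusted p = 0.622), or 0.82 ± 0.72 and −0.75 ± 0.37 without IEL TR library 1 (adjusted p = 0.799 and 0.581). Il10, an inhibitory cytokine of regulatory cells, had 160, 456 and 74.9 in IEL TR, 7.01, 16 and 0 in IEL SP, 1459, 1219 and 684 in LP TR, and 62.1, 55.2 and 48.7 in LP SP. It was above SP in both sites, and its interaction of 0.86 ± 1.58 (adjusted p = 0.926) had an interval from −2.59 to 4.30. It was 0.93 ± 1.57 without IEL TR library 1 (adjusted p = 0.908). Ccl5, a chemokine of cytotoxic cells, came closest to a call: it had 96.7, 202 and 213 in IEL TR, 22494, 20035 and 23359 in IEL SP, 180, 177 and 175 in LP TR, and 8355, 6702 and 9475 in LP SP. The TR site difference was not called (−0.14 ± 0.25, adjusted p = 0.88), the SP levels did not overlap, and the interaction was −1.58 ± 0.29 (adjusted p = 0.0872), or −1.21 ± 0.21 (adjusted p = 0.0524) without IEL TR library 1.

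Among 33 lists, 11 of them of cell type markers, CD4 helper identity held the most calls. Of its 12 measured genes, 3 were called higher in both fits (Icos, Cd28 and Tnfsf11) and 0 lower. These 3 are among the 13 genes named above. Of all 10768 genes tested, 11 were called higher and 2 lower with 12 libraries, and 16 and 8 without IEL TR library 1. Its median interaction without IEL TR library 1 was 0.70 (0.49 with 12 libraries), against 0.02 over all genes tested (−0.02). Tox, Cd6, Cd5 and Gata3 of the same list had interactions from −0.52 to −0.04, so the list did not move as a whole. Of the 20 regulatory core genes, 1 was called higher with 12 libraries (Tnfrsf4) and 2 without IEL TR library 1 (with Tnfrsf18), with a median of 0.51 (0.38). In the same list 14 genes were called higher in TR than in SP in the epithelium without IEL TR library 1 (3.81% of all genes) and 17 in the lamina propria (5.47%), so the core largely distinguished TR from SP in both places.

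Over all genes tested, 0.121% were called in either direction with 12 libraries and 0.223% without IEL TR library 1. Of 12 inhibitory receptors 1 was called higher (Lilrb4), and of 20 genes of gut effector regulatory cells 1 (Icos), with medians of 0.19 and 0.17 without IEL TR library 1. Both medians changed sign under other choices. The first was 0.06 with 12 libraries and −0.05 with 12 libraries at equal totals, and the second was −0.02 with 12 libraries. Of 12 integrin genes 1 was called lower (Itgav), with a median of −0.42. Itgb8, the partner of Itgav in releasing TGF-β, had an interaction of −1.43 without IEL TR library 1 and −0.70 with 12 libraries, and was not called. Of 13 naive and memory genes 1 was called higher, Tcf7, and only without IEL TR library 1. The median was 0.72, and 12 of the 13 had an interaction above 0, as had 5522 of the 10768 genes tested.

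Several lists had medians away from 0 without a called gene. The 19 proliferation genes had a median of −1.36 without IEL TR library 1 (−1.50 with 12 libraries), and 1 of them, Mcm5, lay above 0. Mki67 stood at −2.90 and Cdk1 at −2.53, examples picked after their values were seen, and 0 of the 19 were called between TR and SP in either site. The 18 immediate early and dissociation-associated genes had a median of 1.09 (1.02), with 15 above 0 and Dusp1 (1.94) and Fos (1.38) among them. Of these 18, 10 were called lower in TR than in SP in the lamina propria (4.25% of all genes) and 1 in the epithelium (2.88%). Called higher in TR were 2 in the epithelium (3.81%), Dusp1 and Zfp36, and 0 in the lamina propria (5.47%). The 16 cytotoxicity genes had a median of −0.88. Of these, 11 were called lower in TR in the epithelium (2.88% of all genes) and 10 in the lamina propria (4.25%).

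**Figure D5:**
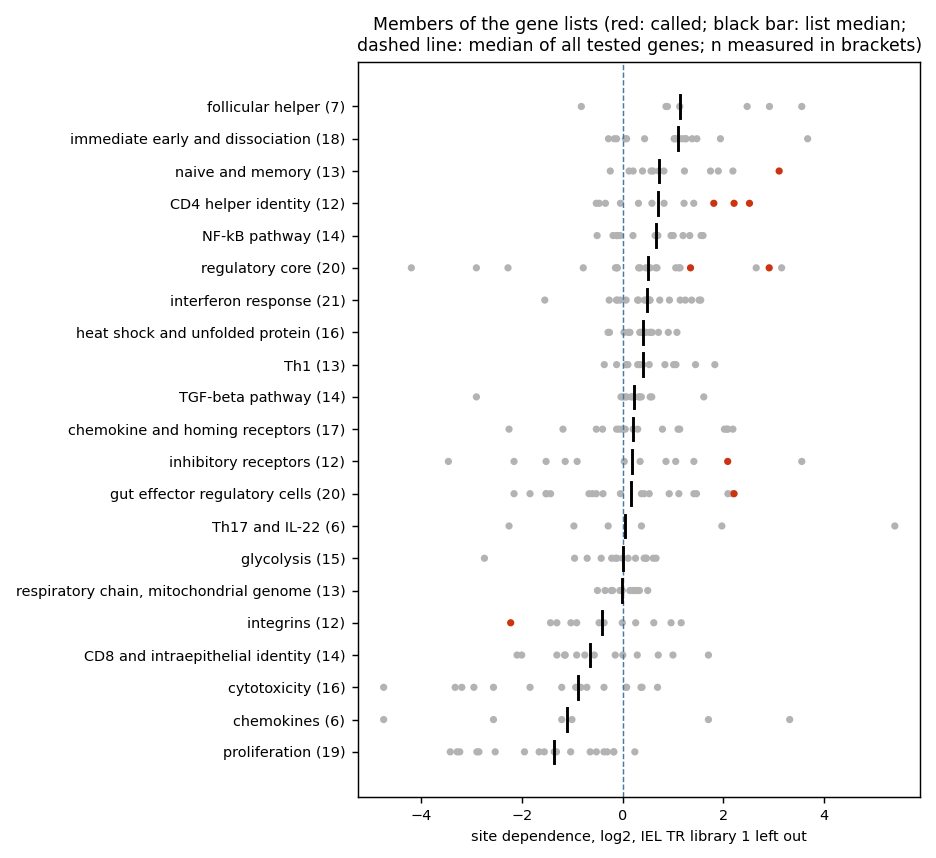
Interaction (log2, IEL TR library 1 left out) of each measured gene in 21 lists that are not of cell type markers, ordered by median. Grey points are genes not called, red points called genes, black bars list medians and the dashed line the median of all tested genes. The medians run from −1.36 for proliferation to 1.14 for follicular helper genes, and red points lie in 6 lists.

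Markers of other cells differed between these groups, and their part in the results was not tested. The 9 T-cell markers summed to 21010 to 26414 in all 12 libraries. The 15 listed markers of B and plasma cells summed to 741 to 1873 in IEL TR and 745 to 1428 in LP TR but 172 to 195 in IEL SP and 175 to 245 in LP SP, with Ighm at 455 to 1432 in the TR libraries and 3.51 to 30.1 in the SP libraries. The plasma cell gene Igj was at 471 in LP TR library 2 and at 0 in 8 libraries, and Mzb1 was at 0 in 11. The 20 epithelial markers summed to 523 to 868 in IEL TR, 607 to 1837 in IEL SP, 207 to 384 in LP TR and 213 to 522 in LP SP, with Alpi at 0 in 11 libraries and Lct in 10. In that list Epcam was at 157 to 372 in the TR libraries and 25.4 to 104 in the SP libraries. Cdh1 went the other way, with 3.25 to 9.46 in TR and 93.3 to 408 in SP. The epithelial sums thus mix members that differed between the sorts in opposite directions. Reg3g and Reg3b of that list reached 649 and 413 in IEL SP library 1 and 189 and 175 in IEL TR library 2. The 4 listed gamma-delta T-cell genes, mainly Tcrg-C4, summed to 700 to 887 in IEL SP and 165 to 274 in LP SP, against 1.37 to 3.49 in IEL TR and 1.08 to 8.70 in LP TR. The 19 myeloid and dendritic markers summed to 416 to 509 in IEL TR, 526 to 568 in IEL SP, 532 to 560 in LP TR and 664 to 1031 in LP SP, and S100a9 was at 0 in all 12, while Lyz2 reached 315 in LP SP library 2 and Cd68 79.97 in LP SP library 3. The 7 antigen presentation genes summed to 763 to 1415 in IEL TR and 232 to 447 in IEL SP, without overlap, and to 826 to 1630 in LP TR and 478 to 1353 in LP SP, which overlapped. The 5 of them that were tested had a median interaction of 1.99 without IEL TR library 1 and 0.10 with 12 libraries. None was called, and Cd74 stood at 2.59 ± 0.80 (adjusted p = 0.33) and 2.32 ± 0.82 (adjusted p = 0.467). The sums of the lists for B cells and gamma-delta T cells thus followed the TR and SP sorts in both sites.

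Promoters, from 250 bases before to 50 after a RefSeq start, were found for 7 of the 13 genes, with 9 starts in all (RefSeq, GRCm38.p6). Gp49a and Lilrb4 were not looked up, because their identifiers and symbols differ between annotations. The promoters found were searched on both strands for the letters of 4 motifs known from T-cell activation. These were the NFAT core (GGAAA), the kappa-B core (GGNNTTTCC), the AP-1 site (TGANTCA) and the cAMP response half-site (TGACG). The NFAT core was present at 6 of the 9 starts, in 5 of the 7 genes, against 61.3% of 32851 promoters. The kappa-B core was present at 2 of the 9, against 5.82% of promoters. Both are starts of Casp4 and their promoters overlap. Each kappa-B match holds an NFAT core match. The cAMP half-site was present at the same 2 starts alone (20.8% of promoters), and the AP-1 site at none (7.81%). These are letter matches and not sites of binding. The promoters below show the member with both of the first motifs (Casp4), the gene with the largest positive interaction (Tnfrsf4) and the lower gene Itgav. Each is printed 5′ to 3′ on the + strand, with matches of the NFAT and kappa-B cores on either strand in capitals. They lie at chr9:5308599-5308898, chr4:156013445-156013744 and chr2:83724147-83724446.
Casp4: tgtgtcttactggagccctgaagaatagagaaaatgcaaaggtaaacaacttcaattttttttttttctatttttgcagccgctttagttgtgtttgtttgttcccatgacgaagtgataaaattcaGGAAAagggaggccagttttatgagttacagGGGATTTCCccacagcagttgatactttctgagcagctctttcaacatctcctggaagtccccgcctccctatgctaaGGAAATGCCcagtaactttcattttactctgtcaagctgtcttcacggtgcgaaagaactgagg
Tnfrsf4: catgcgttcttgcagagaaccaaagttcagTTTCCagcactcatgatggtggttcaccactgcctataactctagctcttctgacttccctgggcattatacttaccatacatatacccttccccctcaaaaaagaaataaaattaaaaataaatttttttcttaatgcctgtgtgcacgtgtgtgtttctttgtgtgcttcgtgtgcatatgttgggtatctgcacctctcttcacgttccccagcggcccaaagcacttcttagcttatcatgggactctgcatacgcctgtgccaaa
Itgav: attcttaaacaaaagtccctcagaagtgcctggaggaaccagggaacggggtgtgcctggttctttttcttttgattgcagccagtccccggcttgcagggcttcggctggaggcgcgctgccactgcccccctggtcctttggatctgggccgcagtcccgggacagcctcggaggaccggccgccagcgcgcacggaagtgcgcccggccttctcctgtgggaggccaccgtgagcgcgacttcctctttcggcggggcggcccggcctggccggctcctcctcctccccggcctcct
The Casp4 promoter held 2 kappa-B matches, the Tnfrsf4 promoter 1 NFAT core match on the opposite strand, and the Itgav promoter neither.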

How the data were processed

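RNA of sorted intestinal CD4 T cells was sequenced in 18 libraries, of which the 12 of the TR and SP groups entered the interaction and the 6 DP libraries a fit of their own. Per the submitters' processing notes TopHat and HTSeq were used with mm10 (GRCm38). Their versions are not given in the sources used here. The deposited signal is a normalised count made by the authors from reads per gene. In each of the 18 libraries 100% of values above 0 were whole multiples of 1 step (tolerance 0.1 of a step), so whole reads were recovered, 5093955 to 8851347 in the 12 libraries. The normalised totals ran from 5659418 to 7467918. How the authors' factors were computed is not stated.

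Groups came from the labels. Values were taken to log2 after adding 1, and genes with at least 50 in at least 3 of the 12 libraries were fitted with limma 3.58.1 (R 4.3.3), with 1 variance weight per group, trended and robust variance, and Benjamini-Hochberg adjustment over 10768 genes (threshold 0.05). Group weights were chosen because IEL TR varied more than the rest. A fold change on this scale understates the change of low genes. The count tests on recovered reads, edgeR 4.0.16 (quasi-likelihood) and DESeq2 1.42.0, called 25 and 146 genes for the interaction with 12 libraries. Neither used group weights. With 3 libraries a group, an exact permutation test of TR against SP in 1 site, counting both directions, cannot go below 0.1. No permutation test is given for that or for the interaction.

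The members, gene lists and settings were chosen with earlier results of these data known. Named genes were those called in both fits with the same sign (predicted genes and Rik clones left out of ranking, so A630023P12Rik is named outside the rule; some called genes are not reported here), list members called in both fits, and always Foxp3, Cd4, Cd8a, Cd8b1, Zbtb7b, Runx3, Ctla4, Il10 and Ccl5. The labels do not say what a replicate number marks, and libraries were fitted without a replicate block. Gene coordinates are from GENCODE M21, which held 36639 of the listed identifiers. Other pseudocounts (0.5 and 5), filters, scalings, variance models and leaving out each library were tried.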

Additional observations from a re-analysis of the deposited data

Results flagged for a closer look

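These results stand here because the Foxp3+ difference in the epithelium and that in the lamina propria differed by the test of the difference itself (limma, adjusted p under 0.05). With 12 libraries the interaction was higher for Tnfrsf4 (3.12), Tspan32 (2.77), Tnfsf11 (2.48), A630023P12Rik (2.11), Icos (2.05), Gp49a (1.98), Crem (1.94), Lilrb4 (1.84), Cd28 (1.64), Pim1 (1.51) and Casp4 (1.13). It was lower for Itgav (−2.57). All 12 were also called without IEL TR library 1.

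Called only without IEL TR library 1 were Socs3 (4.40), Tcf7 (3.11), Gm12505 (1.65), Tnfrsf18 (1.35) and Gm26809 (1.35), which were higher, and Id2 (−1.89), D8Ertd82e (−2.77), Prkd3 (−4.04), Sephs1 (−4.97) and Prim2 (−5.60), which were lower. With all 12 libraries the adjusted p of these 10 ran from 0.0692 for Gm26809 to 0.705 for Socs3. The IEL TR estimates of these 10 genes rest on 2 libraries.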

How the results depend on the processing

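The count of called interactions moved with the treatment of variance, while the signs of the 13 shared genes did not. With 12 libraries (13 calls) there were 22 with 1 pooled variance, 28 with weights per library, 4 at equal totals, 25 in edgeR and 146 in DESeq2. Without IEL TR library 1 (24 calls) there were 56 with 1 pooled variance, 38 with all 6 groups in the fit, 48 in edgeR and 290 in DESeq2. Calls shared by both fits (13) became 22, 25, 4, 25 and 134 with 1 pooled variance, weights per library, equal totals, edgeR and DESeq2. Neither count test gave IEL TR a variance weight of its own, although its median SD was 0.50 against 0.25 to 0.29 elsewhere. Their calls therefore do not allow for that wider spread. Of the 13 genes, 13 were still called in edgeR and DESeq2 in both fits, but 8 with 12 libraries and 9 without IEL TR library 1 when all 6 groups shared the fit (the losses, Tspan32 among them, are named in the report). With no filter beyond 1 value above 0 they were 12 and 10, and with quantile scaling 12 and 12. Within sites, 1 pooled variance gave 1084 calls for IEL TR − IEL SP with 12 libraries (493 in the report) and 1299 without IEL TR library 1 (720), and 561 for LP TR − LP SP (1091). Weights per library gave 859 for the first. The cause of these changes was not tested.

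Leaving out 1 library at a time gave 0 to 24 calls with 12 libraries, 6 to 203 without IEL TR library 1 and 0 to 18 shared. It gave 151 to 720 for IEL TR − IEL SP, 550 to 1300 for the same without IEL TR library 1, and 615 to 1074 for LP TR − LP SP. The replicate block gave 23 calls with 12 libraries and 15 without IEL TR library 1, of which 7 were among the 13. The 6 lost there were Tnfsf11, Pim1, Itgav, Tnfrsf4, Casp4 and A630023P12Rik, with adjusted p from 0.0534 to 0.0757, and with 12 libraries the block kept all 13. Deviations of 18 same-numbered pairs correlated at 0.0058 to 0.126 (median 0.07, 5 over 0.1), and those of differently numbered pairs at −0.1083 to 0.0684 (median −0.0285). On average each of the 12 libraries correlated best with its own number, a hint of pairing from the data and not from the design. Of the genes always reported, Il10 alone changed sign: −0.08 with 12 libraries and −0.007 without IEL TR library 1 at a pseudocount of 5, and when libraries were left out in turn it ran from −0.326 to 1.717 and from −0.368 to 2.221 in the 2 fits, below 0 without IEL SP library 3 (−0.326 and −0.255) and, in the smaller fit, IEL TR library 2. The adjusted p of the values below 0 was 0.938 and above. Prim2 had few reads in IEL TR, so its interaction depends on the value added before the log. Reads amplified by PCR are not independent molecules, and whether this affected the precision of the count tests was not tested.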

Other observations

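Some lists held no called interaction but had medians above that of all tested genes (0.016 without IEL TR library 1). The 7 follicular helper genes had a median of 1.14 without IEL TR library 1 and 1.40 with 12 libraries, 6 of them above 0, and 3 were called higher in TR than in SP in each site (3.81% of all tested genes in the epithelium and 5.47% in the lamina propria). The 14 genes of the NF-kB pathway had a median of 0.67 (0.71 with 12 libraries), with 9 above 0, Nfkb2 (1.56) and Nfkbia (1.20) among them. The 21 interferon response genes had a median of 0.49 (0.25), with 8 called higher in TR in the epithelium and 7 in the lamina propria, against the same shares of all genes. The 6 chemokine genes had a median of −1.11 (−1.37), from Ccl3 at −4.75 to Cxcl10 at 3.32. These genes were picked as examples after their values were seen.

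Without IEL TR library 1, the TR − SP difference was called in opposite directions in the 2 sites for 7 listed identifiers. Of these, Tnfsf11, Gm12505, Gm26809 and Id2 were also called for the interaction. Kdm6b, which encodes a histone demethylase, was higher in TR by 0.89 in the epithelium and lower by 0.54 in the lamina propria, and its interaction of 1.44 was not called (adjusted p = 0.0567 by limma). Neurl3 was higher by 1.10 and lower by 0.74, with an interaction of 1.84 (adjusted p = 0.0676 by limma). The other identifier is listed as unmatched.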
